A study of Mus musculus with 64 samples.

Results

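Microglia labelled RISP KO were compared with microglia labelled RISP Het, all from adult mice given cuprizone. RISP is the Rieske iron-sulphur protein, which the gene Uqcrfs1 encodes. The members are the libraries whose labels join either genotype with cuprizone and the adult age group, 6 RISP KO and 4 RISP Het, which is 10 of the 64 libraries of the series. Microglia had been sorted from whole brain as DAPI-negative cells stained for CD11b and CD45.2, and libraries were made from total RNA with a stranded kit. The dose and duration of cuprizone, the sex of the mice, the Cre driver and the deleted stretch of the gene are not given in the labels, and no WT cuprizone library was used here. The count table carries rows for CreERT2, a tamoxifen-inducible recombinase, and for tdTomato, a fluorescent reporter. CreERT2 counts were present in all 10 libraries, so the Het group carries the recombinase too. The labels do not say whether replicates are separate mice, so the p values measure only the spread between these samples, part of which may be technical. By Y-linked genes each genotype held male and female libraries, so the libraries of a group did not all come from the same mouse.

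Cuprizone binds copper, and oligodendrocytes of mice fed it die, so that axons lose their myelin. Microglia then clear myelin debris and release factors that act on oligodendrocyte precursors. RISP carries electrons from ubiquinol towards cytochrome c in respiratory complex III, and without it the complex cannot pump protons or reoxidise ubiquinol. Cells whose respiratory chain is impaired are known to lean on glycolysis and, in many tissues, to raise the targets of the transcription factors ATF4 and ATF5.

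The 10 libraries were shallow, with 3.32 to 5.1 M counts in KO and 2.7 to 3.66 M counts in Het (M, mega). The noncoding genes Gm26917 and Yam1 together made up 2.42 to 6.7% of all counts in KO libraries and 2.22 to 4.55% in Het libraries, and a line at 3% put KO 1 to 4 with Het 1 and 2 above it and KO 5 and 6 with Het 3 and 4 below it. The labels name no batch that matches this division, so it entered the model as a term and differences within each subset were computed for every gene tested. The libraries below 3% were all female by their Y-linked genes, and the 4 male libraries (KO 1, KO 4, Het 1 and Het 2) lay above it. KO 1 and Het 4 held 0 tdTomato counts, against 301 to 850 in the other 8 libraries, although both held CreERT2 counts. CreERT2 itself lay at 171.6 to 239.8 scaled counts per M in KO and 243.6 to 318.1 in Het, without overlap, and did not pass. Malat1, a nuclear noncoding RNA, held 6077 to 16449 CPM (counts scaled to a common library total of 1 M) in KO libraries and 18407 to 23720 CPM in Het libraries, which did not overlap, and its difference did not pass (adjusted p = 0.074). Its part in the results below was not tested.

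Uqcrfs1 (ENSMUSG00000038462, GRCm38 chr13:30540308-30545362, minus strand) had 3, 4, 5, 3, 0 and 2 counts in KO 1 to 6, against 39, 33, 49 and 48 counts in Het 1 to 4. As CPM, scaled by the trimmed mean of M values (TMM), the KO libraries lay between 0 and 1.48 CPM, against 12.2, 11.3, 13.5 and 13.4 CPM in the Het libraries. The groups were far apart, and a count of 0, as in KO 5, leaves room for 0.776 CPM (3 counts). The difference was -4.17 ± 0.49 on the log2 scale, KO over Het (± SE, edgeR's quasi-likelihood test, adjusted p = 0.000446). It was -5.59 in the subset below 3% and -3.51 in the subset above it, and every library goes with its label for this gene.

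Under cuprizone, 23 of 25 immediate early genes and 10 of 15 heat shock genes tested were lower in KO microglia than in Het microglia, against 6.02% of all genes tested. Higher in KO, against 3.57% of all genes tested, were 11 of 20 glycolytic genes, 8 of 14 other targets and regulators of the hypoxia-inducible factor, and 9 of 13 mitochondrially encoded genes. Of 25 markers of homeostatic microglia, 2 passed (8%), which is close to the 9.59% of all genes tested. Of 11378 genes that passed a filter on low counts, 1091 passed the test at an adjusted p (Benjamini-Hochberg) of 0.05, or 9.59%. Of these, 406 were higher in KO (3.57% of genes tested) and 685 lower (6.02%). The count was 584 without Het 1, 623 without Het 2 and 586 without the 2 libraries with no tdTomato. For KO against Het under cuprizone with the spread estimated over all 64 libraries and no subset term, 612 genes were higher and 492 lower. The median gene lay at 0.00321 on the log2 scale, as TMM centres most genes by construction. The first principal component held 28.8% of variance and separated the genotypes, with KO libraries between -44.1 and -13.1 and Het libraries between 36 and 48.9. The CPM ranges of KO and Het did not overlap for 534 genes with KO above Het (4.69%) and 741 genes with KO below Het (6.51%).

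For single genes, KO levels are given below as the lowest, the median and the highest of the 6 libraries, and Het levels for Het 1, 2, 3 and 4 in that order. Levels are TMM-scaled CPM, which are comparable between libraries and not between genes of different length. Log2 fold changes are KO over Het with their SE, and every adjusted p is from the edgeR quasi-likelihood test over all genes tested.

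Lox, which encodes the collagen cross-linking enzyme lysyl oxidase, had the largest rise among the named genes with a mean log2 CPM of at least 3. It held 58.6, 64.8 (median) and 73.5 CPM in KO and 4.70, 1.72, 9.10 and 8.35 CPM in Het. Every KO library stood clearly above every Het library, and the difference was 3.59 ± 0.31 (adjusted p = 6.49e-05). Cox6a2, which encodes the muscle form of a cytochrome oxidase subunit, held 10.5, 21.2 (median) and 25.4 CPM in KO and 1.25, 1.72, 4.14 and 2.23 CPM in Het. Its groups were also apart (3.13 ± 0.38, adjusted p = 0.000503). The transcription factor gene Atf5 held 18.0, 21.1 (median) and 35.7 CPM in KO and 2.82, 4.12, 3.03 and 4.45 CPM in Het, a difference of 2.76 ± 0.29 (adjusted p = 0.000205). The transmembrane protein gene Tmem154 held 10.8, 21.7 (median) and 26.0 CPM in KO and 2.82, 4.12, 6.07 and 5.57 CPM in Het (2.14 ± 0.34, adjusted p = 0.00241). Rab3d, a small GTPase of secretory vesicles, had overlapping ranges, with 7.50, 11.7 (median) and 31.6 CPM in KO and 1.25, 1.37, 5.24 and 11.1 CPM in Het (2.09 ± 0.43, adjusted p = 0.0113). Its highest KO value is that of KO 5, and its call was lost without Het 1. Nrd1, which encodes the peptidase nardilysin, was uneven among KO libraries, at 324, 44.4, 122, 307, 704 and 412 CPM in KO 1 to 6, against 67.0, 76.5, 68.1 and 59.3 CPM in Het. KO 2 lay below every Het library and the other 5 KO libraries above them, and the call (2.16 ± 0.54, adjusted p = 0.0293) was lost without any 1 of KO 1, 4 or 5 or any Het library.

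Gem, Dusp18, Adamts1 and Fam71a are in none of the lists described below and were among the 10 named genes with the largest falls (mean log2 CPM no lower than 3). Gem, a small GTPase that responds to mitogens, held 1.45, 3.88 (median) and 16.8 CPM in KO and 119.6, 34.3, 104 and 129 CPM in Het (-3.92 ± 0.43, adjusted p = 0.000287). Dusp18, a dual-specificity phosphatase, held 2.36, 3.40 (median) and 7.29 CPM in KO and 36.3, 60.4, 52.4 and 47.9 CPM in Het (-3.59 ± 0.29, adjusted p = 4.29e-05). Both had separate ranges, as did Adamts1, a secreted metalloprotease, with 9.01, 23.5 (median) and 174 CPM in KO and 494, 275, 901 and 1141 CPM in Het (-3.63 ± 0.40, adjusted p = 0.000287). Fam71a held 0 counts in KO 1 and KO 3 and reached 25.0 CPM in KO 6, above the 21.6 CPM of Het 2, and the other Het libraries held 63.2, 91.3 and 108 CPM (-3.68 ± 0.67, adjusted p = 0.00561). In Gem, Adamts1 and Fam71a the KO 5 and KO 6 libraries were the highest of the KO group.

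**Figure D1:**
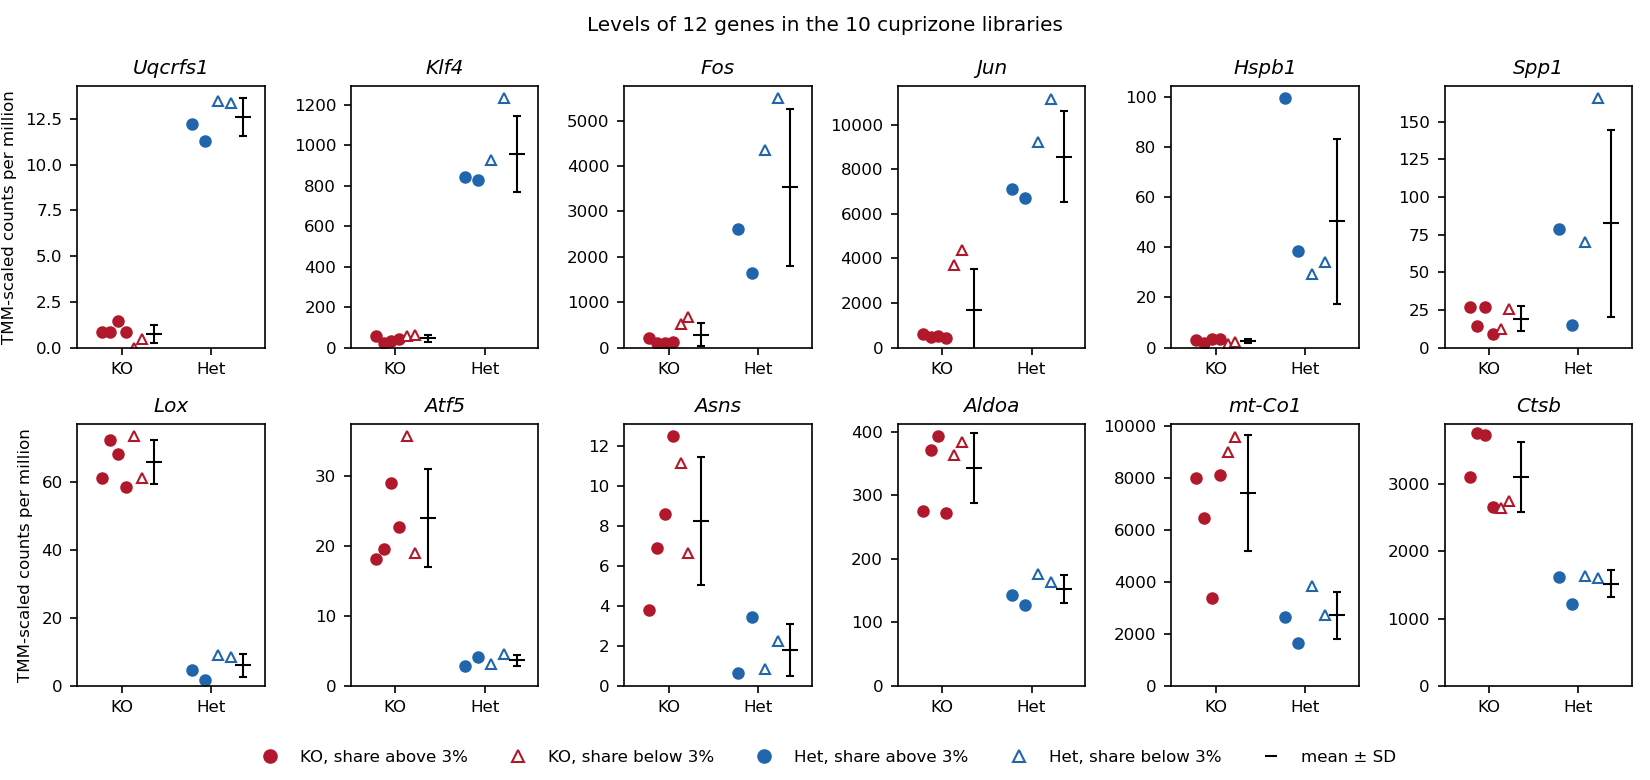
TMM-scaled CPM (linear axes from 0) of 12 genes in each of the 10 cuprizone libraries, KO left of Het, with filled circles for libraries above the 3% line, open triangles for those below it, and the mean ± SD of each group in black. Uqcrfs1, Klf4, Fos, Jun and Hspb1 are low in all 6 KO libraries, Lox, Atf5, Aldoa and Ctsb are high in all 6, Asns in KO 1 lies close to Het 2, and for Spp1 and mt-Co1 a library of 1 group lies inside the range of the other.

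The gene lists read next group genes by function and were drawn up with earlier results of these data known. Together they hold 580 tested genes, of which 138 passed (70 higher in KO, 68 lower), and 85 passed without Het 1. Their counts are to be read against 3.57% of all genes called higher and 6.02% called lower.

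**Figure D2:**
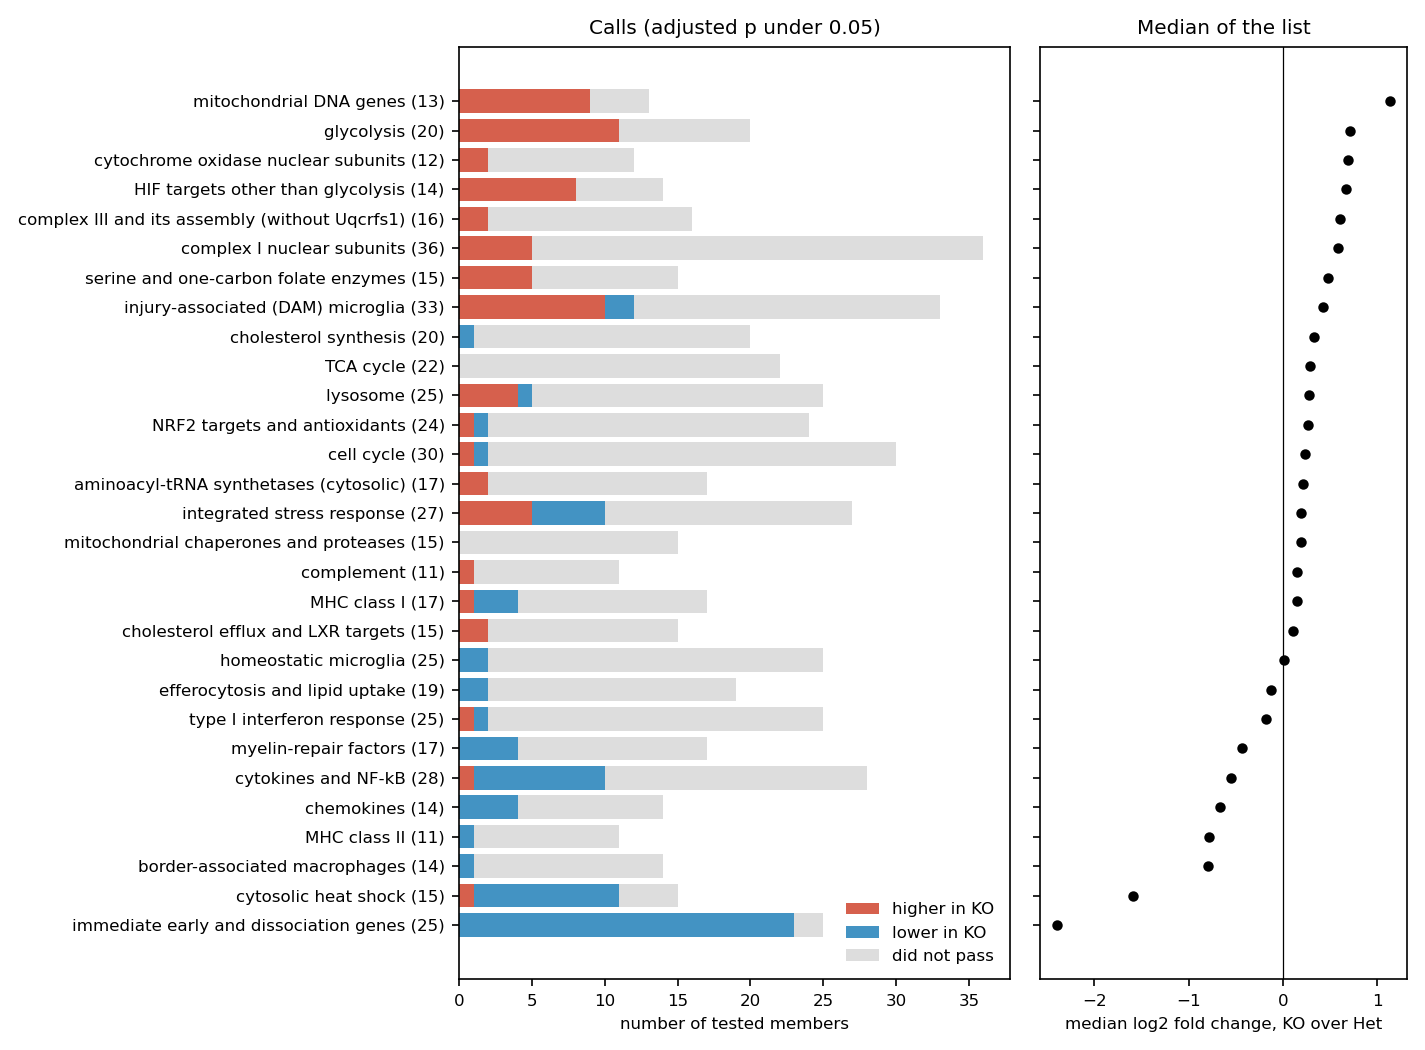
Left, the number of tested members of each list with at least 10 tested members that were higher in KO, lower in KO or did not pass (adjusted p 0.05). Right, the median log2 fold change of the list, KO over Het. The list of immediate early and dissociation genes has 23 of 25 members lower and the lowest median (-2.398), and the mitochondrial DNA genes have 9 of 13 higher and the highest median (1.141).

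Immediate early genes encode transcription factors and feedback regulators that a cell transcribes within minutes of a stimulus, without new protein synthesis. They also respond to the dissociation of tissue into single cells. Of 25 such genes tested, 23 were lower in KO, none was higher and 2 did not pass, with a median log2 fold change of -2.398 over the list. For 13 of the 25 KO lay below Het without overlap, against 6.51% of all genes tested. Summed over the list, KO libraries held 2619 to 17190.0 CPM and Het libraries 23990.0 to 55500.0 CPM.

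Klf2, Klf4 and Klf6, the members of this list that encode Krüppel-like zinc finger transcription factors, fell. Klf4 (GRCm38 chr4:55527143-55532466, minus strand) held 21.3, 48.5 (median) and 60.02 CPM in KO and 846, 828.9, 926 and 1233 CPM in Het. No library of either group came near the other group, and the difference was -4.36 ± 0.22 (adjusted p = 2.84e-06), with -4.21 below the 3% line and -4.47 above it. Klf2 held 39.9, 62.6 (median) and 139.7 CPM in KO and 1014, 872, 1051 and 1749.6 CPM in Het (-3.90 ± 0.22, adjusted p = 3.18e-06). Klf6 held 130.2, 157 (median) and 255 CPM in KO and 1061, 713, 1217 and 1486 CPM in Het (-2.53 ± 0.14, adjusted p = 3.18e-06). All 3 had separate ranges.

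The AP-1 subunits, which pair as dimers on DNA, fell as well. Fos held 93.6, 171 (median) and 678 CPM in KO and 2621, 1642, 4353 and 5488 CPM in Het, a difference of -3.61 ± 0.29 (adjusted p = 3.78e-05). Fosb held 22.9, 56.9 (median) and 172 CPM in KO and 1139, 1114, 1798 and 2398 CPM in Het (-4.32 ± 0.30, adjusted p = 1.38e-05). Jun held 586, 476, 517, 421, 3699 and 4385 CPM in KO 1 to 6, against 7134, 6738, 9227 and 11181 CPM in Het. KO 5 and KO 6 stood apart from the other 4 KO libraries and still below every Het library. The pooled difference of Jun was -2.83 ± 0.39 (adjusted p = 0.00122), made of -1.34 below the 3% line and -3.79 above it. Junb, Jund and Fosl2 also fell, by 2.27, 2.11 and 1.73 on the log2 scale, and Jund did not pass inside the subset below 3%.

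Egr1, a zinc finger factor downstream of growth factor and synaptic signals, held 98.8, 82.5, 64.4, 89.1, 763 and 657 CPM in KO 1 to 6, against 1716, 1662, 3933 and 5208 CPM in Het (-3.66 ± 0.29, adjusted p = 3.67e-05). Again KO 5 and KO 6 were the highest of the KO group, and no KO library reached a Het library. Egr2 and Egr3 fell by 1.82 and 2.40 on the log2 scale, with overlapping ranges. The feedback regulators of the list fell too. Dusp1, a phosphatase that switches off MAP kinases, held 56.7, 96.7 (median) and 542 CPM in KO and 1411, 1228, 2215 and 3079 CPM in Het (-3.40 ± 0.34, adjusted p = 0.000148). Zfp36, which encodes the mRNA-destabilising protein tristetraprolin, held 189.8, 151, 151, 148, 2352 and 2182.2 CPM in KO 1 to 6, against 1416, 1143, 3907 and 4872 CPM in Het (-2.18 ± 0.33, adjusted p = 0.00187). KO 5 and KO 6 exceeded Het 1 and 2, which belong to the other subset, and stayed below Het 3 and 4. The 2 members that did not pass were Nr4a1 (-1.63 ± 0.47, adjusted p = 0.0520) and Ier3 (-0.97 ± 0.32, adjusted p = 0.0822).

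The promoters of Dusp1 and Zfp36 are shown because each holds a short element through which immediate early genes are classically switched on, the CRE bound by CREB or the CArG box bound by serum response factor. Both windows run from 250 bases before to 50 bases after a start site in RefSeq (GRCm38.p6), are read on the gene's strand, and have the match in capitals. Dusp1 is chr17:26508423-26508722 (minus strand), with the CRE, TGACGTCA, 143 to 136 bases before the start. Zfp36 is chr7:28379179-28379478 (minus strand), with the CArG box 58 to 49 bases before the start.
Dusp1: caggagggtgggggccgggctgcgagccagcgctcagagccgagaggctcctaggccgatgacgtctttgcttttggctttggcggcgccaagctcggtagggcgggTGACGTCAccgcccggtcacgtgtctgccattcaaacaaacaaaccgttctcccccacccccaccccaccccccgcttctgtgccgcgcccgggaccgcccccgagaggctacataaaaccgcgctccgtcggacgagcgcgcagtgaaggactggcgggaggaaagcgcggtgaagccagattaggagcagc
Zfp36: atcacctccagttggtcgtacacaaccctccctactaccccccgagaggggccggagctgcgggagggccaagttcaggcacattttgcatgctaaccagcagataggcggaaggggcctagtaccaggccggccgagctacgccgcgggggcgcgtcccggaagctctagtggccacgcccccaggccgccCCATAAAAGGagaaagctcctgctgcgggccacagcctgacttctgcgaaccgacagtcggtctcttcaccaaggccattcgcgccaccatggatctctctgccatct
Of 32851 such windows in RefSeq, 1.79% held a CRE and 1.63% a CArG box, counting both strands. Among windows of 22 members of the immediate early list, 3 of 28 (10.7%) held a CRE, those of Dusp1, Btg2 and Maff, and 5 of 28 (17.9%) a CArG box, 4 of them windows of Egr2 and 1 of Zfp36. A match describes these letters in this window and is not evidence of binding.

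Cytosolic chaperones fold proteins and are raised by heat shock factor when unfolded protein accumulates. Of 15 heat shock genes tested, 10 were lower in KO and 1 was higher, and the median was -1.591. Summed CPM of the list was 3648 to 6804 in KO and 8550.0 to 15290.0 in Het. All 11 called members differed more above the 3% line than below it, as did 765 of all 1091 genes called. Hspb1, the small heat shock protein HSP27, held 1.55, 2.52 (median) and 3.54 CPM in KO and 99.5, 38.4, 29.5 and 33.95 CPM in Het (-4.38 ± 0.30, adjusted p = 1.38e-05). Het 1 held the most, and the other 3 Het libraries still lay well above every KO library. Dnajb1, a co-chaperone of HSP70, held 38.6, 52.3 (median) and 95.0 CPM in KO and 315, 273, 249 and 244 CPM in Het (-2.21 ± 0.21, adjusted p = 0.000113). Hsp90aa1, the inducible HSP90, held 284, 314 (median) and 494 CPM in KO and 2341, 1414, 1108 and 1117 CPM in Het (-2.12 ± 0.23, adjusted p = 0.000293). Dnajb4 held 20.1, 26.3 (median) and 34.2 CPM in KO and 172, 88.5, 113 and 103 CPM in Het (-2.14 ± 0.21, adjusted p = 0.000126). The ranges of all 4 genes were separate. Hspa1a and Hspa1b, near-identical copies of inducible HSP70 between which reads cannot be assigned with certainty, fell by 2.16 and 2.12 on the log2 scale. Both differences were larger in the subset above 3% (-3.07 and -3.14, against -0.76 and -0.51 below it). The co-chaperone Stip1 was the member that rose (0.59 ± 0.14, adjusted p = 0.0223), and Hsf1, the heat shock factor itself, differed by -0.04 ± 0.15 and did not pass.

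Hsph1, which encodes the HSP110 chaperone and fell by 1.93 on the log2 scale, is shown as a member of this list whose promoter window holds a heat shock element. The window is chr5:149636287-149636586 (minus strand, GRCm38.p6) with the match in capitals, 36 to 48 bases after the start site.
Hsph1: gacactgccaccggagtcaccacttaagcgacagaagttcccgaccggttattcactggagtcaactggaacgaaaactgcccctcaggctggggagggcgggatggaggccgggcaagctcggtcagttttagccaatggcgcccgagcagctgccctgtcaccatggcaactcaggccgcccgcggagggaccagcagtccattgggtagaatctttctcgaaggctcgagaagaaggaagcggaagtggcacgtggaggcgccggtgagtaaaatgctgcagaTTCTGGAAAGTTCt
The element searched was GAANNTTCNNGAA on both strands. It occurred in 0.603% of all windows and in 3 of 16 windows (18.8%) of the heat shock list, which belong to 2 of its 11 genes with a window.

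**Figure D3:**
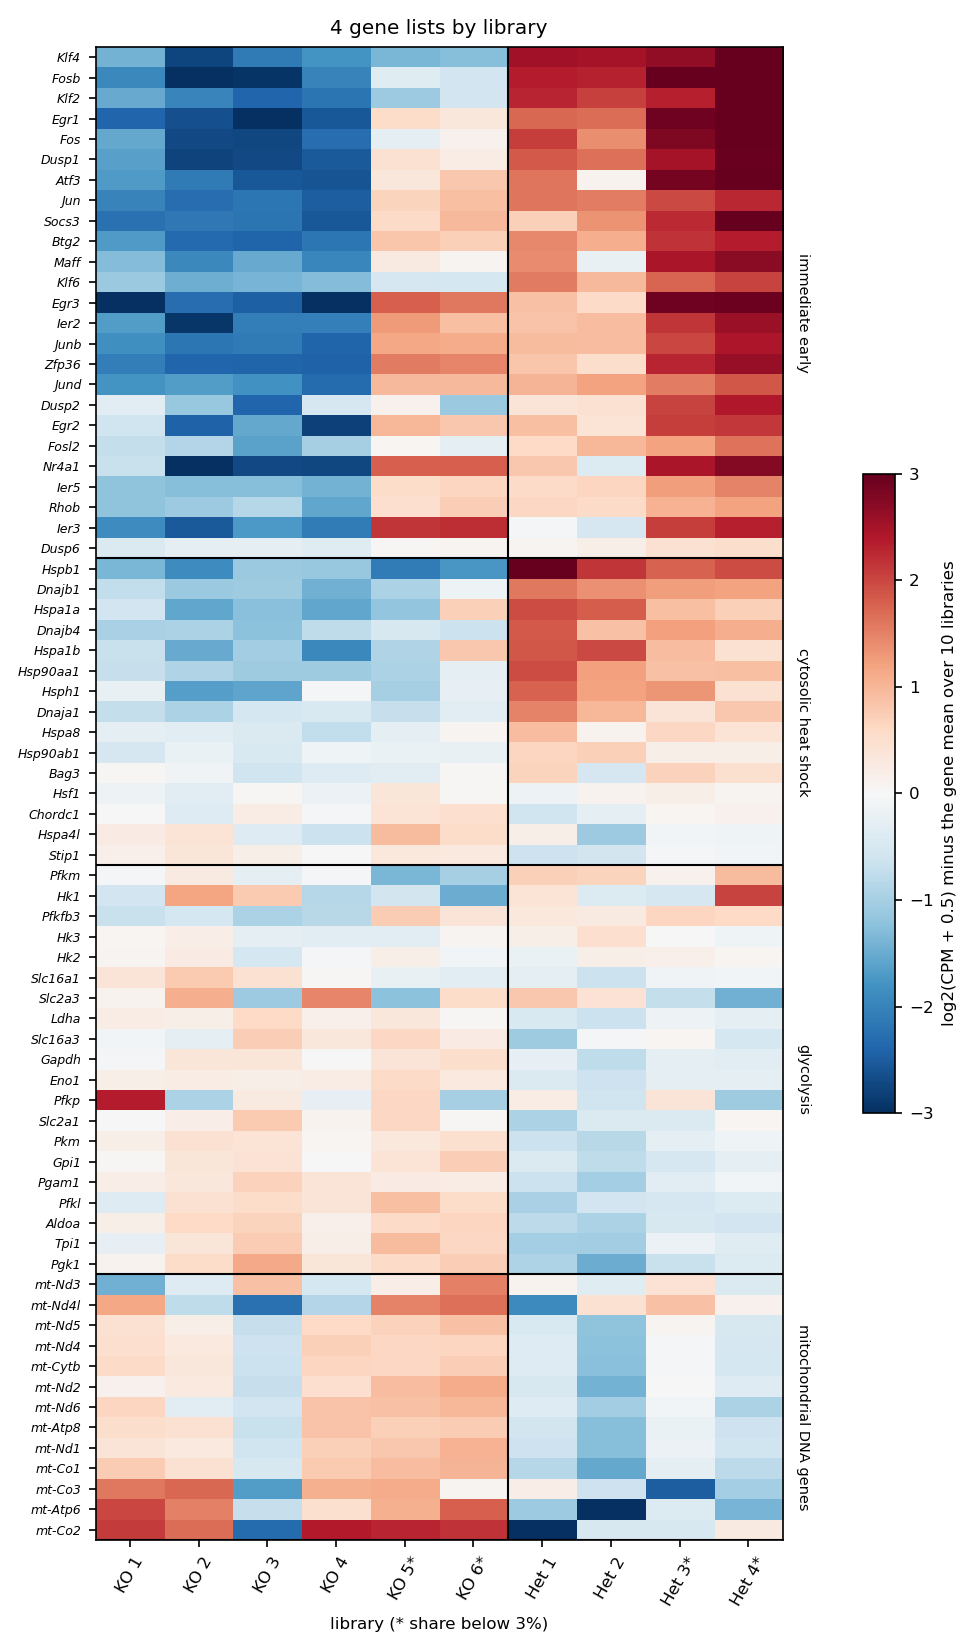
Log2(CPM + 0.5) of each tested member of 4 lists minus its mean over the 10 libraries, with KO 1 to 6 left of Het 1 to 4 and an asterisk on libraries below the 3% line. The immediate early genes are lowest in KO 1 to 4, intermediate in KO 5 and 6 and highest in Het 3 and 4, and KO 3 has the lowest mitochondrial DNA genes of the KO group.

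NF-kB targets and cytokines showed a smaller shift in the same direction. Of 28 such genes tested, 9 were lower in KO and 1 was higher, with a median of -0.547, and 4 of 14 chemokine genes were lower with a median of -0.663. The mean log2 level of the cytokine list was 4.24 to 5.78 in KO libraries and 5.06 to 6.35 in Het libraries, with KO 5 and 6 above Het 1 and 2. Nfkbiz, a nuclear IkB protein, held 55.5, 30.8, 35.4, 43.8, 249.99 and 211 CPM in KO 1 to 6, against 286, 178, 768 and 954 CPM in Het (-2.23 ± 0.20, adjusted p = 8.67e-05). Ranges overlapped across the subsets and not within either. Tnfaip3, the NF-kB inhibitor A20, held 73.8, 123 (median) and 477 CPM in KO and 506, 335, 1121 and 1596 CPM in Het (-1.78 ± 0.19, adjusted p = 0.000220). Il1a, an alarmin of the IL-1 family, held 46.8, 64.2 (median) and 265 CPM in KO and 169, 113, 387 and 493.4 CPM in Het (-1.06 ± 0.16, adjusted p = 0.00218). Nlrp3, the inflammasome sensor, had separate ranges, with 57.6, 92.6 (median) and 156 CPM in KO and 191, 176, 304 and 425 CPM in Het (-1.29 ± 0.22, adjusted p = 0.00340). Tnf, which encodes the cytokine TNF, held 13.95, 8.54, 7.38, 7.54, 267 and 233 CPM in KO 1 to 6, against 58.8, 37.1, 154 and 238 CPM in Het, and did not pass (-1.16 ± 0.46, adjusted p = 0.141). It was 0.35 below the 3% line and -2.36 above it, and KO 5 exceeded every Het library. Among chemokine genes, Ccl6 held 19.2, 36.04 (median) and 42.7 CPM in KO and 108, 57.6, 75.0 and 102 CPM in Het (-1.37 ± 0.23, adjusted p = 0.00382). Ccl9 held 23.2, 30.1 (median) and 45.8 CPM in KO and 70.1, 46.0, 63.1 and 103 CPM in Het (-1.09 ± 0.24, adjusted p = 0.0153), a call lost without Het 1. The chemerin receptor gene Ccrl2 fell by 1.66 on the log2 scale, with -0.96 below the 3% line and -2.21 above it. Ccl4 fell by 1.73, a call lost without any 1 of KO 1, 2 or 3 or Het 1 or 2. The Ccl4 difference was -0.62 below the line and -2.58 above it, and neither Ccrl2 nor Ccl4 passed inside the subset below 3%. The member that rose was Tnfaip2 (0.91 ± 0.25, adjusted p = 0.0407).

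Glycolysis turns glucose into pyruvate and yields ATP without the respiratory chain. Of 20 glycolytic genes tested, 11 were higher in KO and none was lower, with a median of 0.717. For 9 of the 20 KO lay above Het without overlap, against 4.69% of all genes tested. Summed CPM was 2537 to 3501 in KO and 2052 to 2535 in Het, so that the lowest KO library was just above the highest Het library. Aldoa, the aldolase of the pathway, held 272, 368 (median) and 394 CPM in KO and 143, 127, 176 and 164 CPM in Het (1.22 ± 0.14, adjusted p = 0.000378). Pgk1, phosphoglycerate kinase, held 62.5, 85.5 (median) and 128 CPM in KO and 30.4, 20.2, 36.1 and 43.4 CPM in Het (1.53 ± 0.24, adjusted p = 0.00230). Both genes had separate ranges and were higher by over 1 on the log2 scale in each subset. Inside the subset below 3% Aldoa passed and Pgk1 did not. Tpi1, triosephosphate isomerase, held 49.7, 83.4 (median) and 114 CPM in KO and 28.8, 28.1, 51.8 and 45.6 CPM in Het, where the lowest KO library, KO 1, lay below Het 3 (1.23 ± 0.20, adjusted p = 0.00291). Eno1, enolase, held 239.8, 249 (median) and 317 CPM in KO and 157, 138, 175 and 176 CPM in Het (0.72 ± 0.10, adjusted p = 0.00143). The other members that passed were Pfkl, Pgam1, Gpi1, Pkm, Gapdh, Ldha and the glucose transporter gene Slc2a1, between 0.66 and 1.12 on the log2 scale. The hexokinase genes Hk1, Hk2 and Hk3 did not pass (-0.81, -0.04 and -0.25), nor did Pfkfb3 (-0.61 ± 0.18, adjusted p = 0.0607).

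Hypoxia-inducible factor (HIF) drives a set of genes that overlaps with glycolysis, and 14 of its targets and regulators outside glycolysis were tested. Of these, 8 were higher in KO and none was lower, with a median of 0.674. Lox, given above, belongs to this list. Bnip3, a mitochondrial protein of mitophagy, held 48.2, 57.6 (median) and 102 CPM in KO and 18.5, 10.3, 18.5 and 19.8 CPM in Het (1.92 ± 0.27, adjusted p = 0.00133). P4ha1, a collagen prolyl hydroxylase subunit, held 468, 514 (median) and 589 CPM in KO and 305, 306, 307 and 294 CPM in Het (0.77 ± 0.10, adjusted p = 0.00101). Its 4 Het libraries were close together and all KO libraries stood above them. Vegfa, the endothelial growth factor gene, held 13.4, 44.2, 64.1, 45.6, 66.0 and 51.3 CPM in KO 1 to 6, against 10.6, 7.55, 12.96 and 21.4 CPM in Het. KO 1 lay among the Het libraries and the other KO libraries above them (1.99 ± 0.39, adjusted p = 0.00796). Hif1a itself held 258, 362 (median) and 434 CPM in KO and 199.7, 163, 245 and 218 CPM in Het (0.85 ± 0.14, adjusted p = 0.00335). The remaining 3 that rose were Ero1l (0.92), the oxygen sensor Egln1 (0.60) and Pdk1 (0.52), the kinase that restrains pyruvate oxidation in mitochondria. The 6 that did not pass were Arnt, Kdm3a, Mxi1, Bnip3l, Vhl and Egln3, between -0.32 and 0.75. A median of 0.574 below the 3% line and 0.832 above it was measured for the glycolysis list, and 0.556 and 0.735 for the HIF list.

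Mitochondrial DNA encodes 13 subunits of the respiratory complexes and of ATP synthase. All 13 were tested, 9 were higher in KO and none was lower, with a median of 1.141. Summed over the 13, KO libraries held 9386 to 27330.0 CPM and Het libraries 5678 to 12730.0 CPM. KO 3 was the lowest KO library and lay inside the Het range, and no member had separate ranges. The cytochrome oxidase gene mt-Co1 held 7984, 6472, 3389, 8120.3, 9011 and 9582 CPM in KO 1 to 6, against 2626, 1636, 3836 and 2725 CPM in Het (1.56 ± 0.26, adjusted p = 0.00309). The complex I gene mt-Nd1 held 1046, 2342 (median) and 3289 CPM in KO and 1032, 654, 1404 and 1057 CPM in Het (1.24 ± 0.24, adjusted p = 0.00818). The differences of mt-Co1 were 1.503 below the 3% line, where it did not pass, and 1.61 above it. The overlapping genes mt-Atp6 and mt-Atp8, between which reads may be shared, rose by 2.66 and 1.20 on the log2 scale, and the mt-Atp8 call was lost without Het 2. The cytochrome b gene mt-Cytb, the complex III subunit made in mitochondria, held 1582, 3721 (median) and 4087 CPM in KO and 1874, 1031, 2366 and 1703 CPM in Het (1.02 ± 0.26, adjusted p = 0.0307). That call was lost without any 1 of KO 1, 2, 4, 5 and 6 or of Het 2 and 4.

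Nuclear genes of the respiratory chain leaned the same way with few calls. The list of complex III and its assembly without Uqcrfs1 holds 16 genes, of which mt-Cytb is not nuclear but mitochondrially encoded. Of the 16, 2 were higher and none was lower, with a median of 0.607. Besides mt-Cytb this was Uqcrh, the hinge subunit, which held 27.7, 33.6 (median) and 48.4 CPM in KO and 14.7, 12.01, 15.2 and 18.1 CPM in Het (1.26 ± 0.21, adjusted p = 0.00338). Of 36 nuclear subunits of complex I, 5 were higher and none was lower (median 0.589). Ndufa6 held 28.1, 39.6 (median) and 40.4 CPM in KO and 15.02, 8.92, 22.9 and 24.2 CPM in Het (1.17 ± 0.25, adjusted p = 0.0124), a call lost without Het 1. Ndufv1 held 29.8, 34.04 (median) and 45.6 CPM in KO and 18.2, 21.3, 23.99 and 22.3 CPM in Het (0.73 ± 0.18, adjusted p = 0.0262), lost without KO 6, Het 1 or Het 2. Ndufv3 also rose. The calls of Ndufa2 and Ndufab1 were lost in 7 of 10 fits that each left 1 library out. Of 12 nuclear cytochrome oxidase genes, 2 were higher (median 0.693), Cox6a2 and Cox7a2l, a supercomplex assembly factor (1.13 ± 0.18, adjusted p = 0.00230). None of 22 TCA cycle genes and none of 15 mitochondrial chaperone and protease genes passed, and their medians were 0.285 and 0.189.

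The integrated stress response slows translation and raises ATF4, whose targets make amino acids, charge tRNAs and feed back on the response. It was split under cuprizone. Of 27 genes tested, 5 were higher in KO and 5 lower, with a median of 0.196. The 5 lower genes encode transcription factors and a feedback regulator. Atf4 held 136, 151 (median) and 210.4 CPM in KO and 261, 264, 373 and 447 CPM in Het, with separate ranges (-0.98 ± 0.13, adjusted p = 0.00101). Ddit3, the factor CHOP, held 18.1, 28.8 (median) and 32.4 CPM in KO and 52.3, 42.5, 61.2 and 78.8 CPM in Het (-1.02 ± 0.18, adjusted p = 0.00400). Atf3 held 45.6, 73.4 (median) and 484 CPM in KO and 841, 294, 2004 and 2614 CPM in Het, where the highest KO libraries exceeded Het 2 (-2.92 ± 0.30, adjusted p = 0.000186). Ppp1r15a, the subunit GADD34 that recruits a phosphatase to restart translation, held 55.7, 76.0 (median) and 542 CPM in KO and 1224, 878, 1455 and 1812 CPM in Het (-3.03 ± 0.37, adjusted p = 0.000568). Cebpb fell by 0.49 on the log2 scale. Atf3 also belongs to the immediate early list.

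Several metabolic and secreted targets of the response were higher. Asns, asparagine synthetase, held 3.78, 7.72 (median) and 12.5 CPM in KO and 0.626, 3.43, 0.827 and 2.23 CPM in Het, with KO 1 close to Het 2 (2.21 ± 0.53, adjusted p = 0.0248). Chac1, which degrades glutathione, held 2.33, 3.86 (median) and 8.02 CPM in KO and 0, 1.37, 0.827 and 0 CPM in Het (2.99 ± 0.80, adjusted p = 0.0380), from few reads in both groups. Gdf15, a secreted stress hormone, held 2.03, 2.29, 3.25, 1.74, 23.03 and 7.80 CPM in KO 1 to 6, against 0.626, 1.03, 1.93 and 0.557 CPM in Het, so that KO 5 led the group and KO 4 lay below Het 3 (2.64 ± 0.62, adjusted p = 0.0218). Eif4ebp1, an inhibitor of cap-dependent translation, rose by 0.86, and Atf5 is given above. Trib3 (1.49 ± 0.51, adjusted p = 0.0925), Nupr1 (0.79 ± 0.26, adjusted p = 0.0790) and Pck2 (0.48 ± 0.15, adjusted p = 0.0646) did not pass.

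Of 15 enzymes of serine synthesis and of the folate cycle, which yields one-carbon units, 5 were higher in KO and none was lower, with a median of 0.478. Psat1, phosphoserine aminotransferase, held 29.6, 62.6 (median) and 86.5 CPM in KO and 11.9, 28.5, 18.8 and 10.3 CPM in Het (1.81 ± 0.35, adjusted p = 0.00857). Aldh1l2, a mitochondrial folate enzyme, held 12.996, 36.8 (median) and 69.8 CPM in KO and 11.9, 7.89, 7.72 and 7.51 CPM in Het (1.96 ± 0.39, adjusted p = 0.00891). Shmt2, which splits serine in mitochondria, held 33.4, 38.5 (median) and 46.6 CPM in KO and 22.5, 16.8, 21.2 and 24.8 CPM in Het (0.90 ± 0.17, adjusted p = 0.00686). These 3 had separate ranges, narrowly for Psat1 and Aldh1l2. Mthfd2 rose by 1.27 on the log2 scale. Phgdh, the first enzyme of serine synthesis, rose by 0.94, a call lost without any 1 of KO 5, KO 6, Het 1, Het 2 and Het 3. Of 17 cytosolic aminoacyl-tRNA synthetases, Sars (0.69 ± 0.13, adjusted p = 0.00743) and Gars (0.57 ± 0.13, adjusted p = 0.0180) were higher and none was lower (median 0.21), and the Gars call was lost without Het 1.

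The promoters of Chac1, Asns and Atf3 are shown because each holds a C/EBP-ATF element, the kind of site that ATF4 binds with a C/EBP partner, while the 3 genes moved in different directions. Windows and strand are as above (GRCm38.p6), with the match in capitals. Chac1 is chr2:119350992-119351291 (plus strand), with the element 193 to 186 bases before the start. Asns is chr6:7693160-7693459 (minus strand), with the element 23 to 16 bases before it. Atf3 is chr1:191183284-191183583 (minus strand), with the element 110 to 103 bases before it.
Chac1: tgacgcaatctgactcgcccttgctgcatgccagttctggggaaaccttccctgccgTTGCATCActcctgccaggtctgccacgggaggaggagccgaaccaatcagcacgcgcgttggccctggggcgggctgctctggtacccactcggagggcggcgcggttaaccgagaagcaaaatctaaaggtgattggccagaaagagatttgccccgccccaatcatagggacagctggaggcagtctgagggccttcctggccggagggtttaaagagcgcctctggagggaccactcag
Asns: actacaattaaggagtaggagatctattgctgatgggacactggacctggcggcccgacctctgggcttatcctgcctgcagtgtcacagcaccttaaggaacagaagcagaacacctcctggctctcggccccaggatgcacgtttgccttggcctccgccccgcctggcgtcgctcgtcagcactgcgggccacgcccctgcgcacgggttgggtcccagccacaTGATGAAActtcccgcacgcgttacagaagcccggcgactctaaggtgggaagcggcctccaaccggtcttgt
Atf3: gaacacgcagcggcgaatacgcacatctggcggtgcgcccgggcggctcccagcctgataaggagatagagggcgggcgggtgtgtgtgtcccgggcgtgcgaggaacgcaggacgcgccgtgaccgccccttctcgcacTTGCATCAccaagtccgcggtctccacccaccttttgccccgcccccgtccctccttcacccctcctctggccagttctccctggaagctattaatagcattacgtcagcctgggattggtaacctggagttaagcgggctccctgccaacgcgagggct
The element was searched as TGATGNAA on both strands. It was present in 3.97% of all windows and in 8 of 27 windows (29.6%) of 22 genes of the integrated stress response list, and in none of 15 windows of the serine and folate list. So genes with this element in the window fell (Atf3) and rose (Chac1 and Asns).

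The identity of the sorted cells was read from microglial markers. Cx3cr1 held 2005 to 2865 CPM in KO and 1979.7 to 2284 CPM in Het (0.15 ± 0.12). Tmem119 held 776 to 1078 CPM in KO and 910.3 to 988 CPM in Het (-0.12 ± 0.11). P2ry12 held 2209 to 3251 CPM in KO and 1821 to 2271 CPM in Het (0.33 ± 0.13). All 3 are surface proteins that define resting microglia, and their ranges overlapped. Csf1r held 4988 to 7071 CPM in KO and 5562 to 5719.6 CPM in Het (0.01 ± 0.13). Sall1 held 898 to 1334 CPM in KO and 1092 to 1188 CPM in Het (0.05 ± 0.12). None of these 5 passed. Of 25 homeostatic microglial genes, 2 were lower and none was higher, with a median of 0.014. Mef2a (-0.43 ± 0.11, adjusted p = 0.0259) and Mef2c (-0.53 ± 0.14, adjusted p = 0.0367) are transcription factor genes, and each call was lost in 6 of 10 fits with 1 library left out.

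Microglia around damaged myelin take on a state called disease-associated (DAM), with more lysosomal and lipid-handling transcripts. Of 33 genes of that state, 10 were higher in KO and 2 were lower, with a median of 0.422. The median was 0.087 below the 3% line and 0.635 above it. Ctsb, cathepsin B, held 2653, 2931 (median) and 3772 CPM in KO and 1614, 1222, 1638 and 1602 CPM in Het (1.01 ± 0.16, adjusted p = 0.00255). Ctsd, cathepsin D, held 6388, 7589.6 (median) and 9929 CPM in KO and 4310.4, 4442, 4577 and 4887 CPM in Het (0.80 ± 0.15, adjusted p = 0.00626). Both genes had separate ranges. Trem2, the lipid receptor required for the full DAM state, held 486, 551 (median) and 722 CPM in KO and 336, 348, 360.4 and 445 CPM in Het (0.61 ± 0.15, adjusted p = 0.0248). Cst7, cystatin F, held 18.6, 29.1 (median) and 38.0 CPM in KO and 11.9, 5.49, 14.6 and 27.0 CPM in Het, where Het 4 lay inside the KO range (1.18 ± 0.30, adjusted p = 0.0331). Ctsz, Cadm1, Timp2, Ank, B2m and Hif1a also rose, by 0.57 to 0.85 on the log2 scale. Ccl6 and Spp1 fell.

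Several other DAM genes varied widely among the Het libraries. Spp1, which encodes osteopontin, held 26.7, 14.4, 27.2, 9.29, 12.2 and 25.3 CPM in KO 1 to 6, against 78.6, 15.1, 70.3 and 166 CPM in Het. Het 2 lay inside the KO range and the other 3 Het libraries above it. The call (-1.89 ± 0.52, adjusted p = 0.0438) was lost without any 1 of KO 2, 4, 5 and 6 or Het 1, 3 and 4. Gpnmb, a glycoprotein of lipid-laden macrophages, held 6.85, 8.64 (median) and 27.3 CPM in KO and 17.5, 2.74, 16.5 and 35.9 CPM in Het and did not pass (-0.43 ± 0.66, adjusted p = 0.733). Apoe, the lipid carrier, held 1506, 1608 (median) and 3220.4 CPM in KO and 3462, 1523, 2565 and 5379.9 CPM in Het (-0.65 ± 0.38, adjusted p = 0.309). Lpl, lipoprotein lipase, held 55.1, 75.3 (median) and 130.0 CPM in KO and 128, 48.7, 60.7 and 113 CPM in Het (-0.13 ± 0.31, adjusted p = 0.840). Itgax and Clec7a did not pass either (-0.07 and 0.94), where Clec7a is ENSMUSG00000079293 and a second row of that symbol held no counts. All 6 of these genes were lower in Het 2 than in the other 3 Het libraries, and Het 2 was the shallowest of the 10 libraries, at 2.7 M counts. The part of Het 2 in these values was not tested.

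Of 25 lysosomal genes, 4 were higher and 1 was lower, with a median of 0.277. Among the higher genes, Glb1, a hydrolase of glycolipids, rose by 0.70, the membrane protein gene Lamp1 by 0.58 and Naglu by 0.54 on the log2 scale. The calls of Glb1 and Lamp1 were lost without Het 1 or Het 2, and that of Lamp1 also without KO 1 or Het 3. Gla, alpha-galactosidase, held 9.01, 36.3, 12.1, 6.96, 5.43 and 6.85 CPM in KO 1 to 6, against 97.3, 43.2, 47.4 and 31.4 CPM in Het, with KO 2 above Het 4 (-2.33 ± 0.44, adjusted p = 0.00715). That call was lost without Het 1. Gla shares its locus with overlapping transcripts, and whether the counting used strand is not stated.

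Myelin repair draws on factors that microglia release. Of 17 such genes tested, 4 were lower in KO and none was higher, with a median of -0.432, and each of the 4 calls was lost in several fits with 1 library left out. Hgf, hepatocyte growth factor, held 0.518, 0.785 (median) and 2.03 CPM in KO and 5.32, 3.43, 3.03 and 6.40 CPM in Het, with separate ranges (-2.19 ± 0.51, adjusted p = 0.0216). It was lost without KO 5, Het 1 or Het 4. Pdgfb, a platelet-derived growth factor, held 124, 139.8 (median) and 168 CPM in KO and 182, 184, 194 and 248 CPM in Het, also without overlap (-0.47 ± 0.13, adjusted p = 0.0410). The Pdgfb call was kept only without KO 2, and that of the IL-6 family cytokine Osm (-0.77 ± 0.21, adjusted p = 0.0418) only without KO 4. Spp1 is the remaining member. Igf1, a growth factor for oligodendrocytes, held 4.14, 17.2 (median) and 25.4 CPM in KO and 25.0, 8.23, 19.3 and 27.8 CPM in Het and did not pass (-0.37 ± 0.47, adjusted p = 0.677). Tgfb1 differed by -0.04 ± 0.11 and Il1b by -0.14 ± 0.36, and neither passed.

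Of 19 genes of efferocytosis and lipid uptake, 2 were lower and none was higher, with a median of -0.126. Stab1, a scavenger receptor for phosphatidylserine, held 298, 369.6 (median) and 423 CPM in KO and 685, 905, 846 and 440.3 CPM in Het, where Het 4 came close to the KO libraries (-1.02 ± 0.17, adjusted p = 0.00357). Elmo1, which links engulfment receptors to Rac, held 285, 338 (median) and 377 CPM in KO and 497, 554, 479 and 441 CPM in Het (-0.55 ± 0.12, adjusted p = 0.0118), a call lost without Het 1 or Het 2. Myelin debris loads microglia with cholesterol, which they export or store. Of 15 genes of cholesterol efflux and LXR targets, Lipa, lysosomal acid lipase (0.68 ± 0.15, adjusted p = 0.0137), and Npc2, a lysosomal cholesterol carrier (0.65 ± 0.15, adjusted p = 0.0212), were higher, and the Npc2 call was lost without Het 1 or Het 2. Of 20 genes of cholesterol synthesis, 1 was lower and none was higher, although the median was 0.335. That gene was Insig1, which holds the sterol sensor in the endoplasmic reticulum, with 12.4, 15.2 (median) and 18.8 CPM in KO and 54.2, 43.2, 42.7 and 48.1 CPM in Het and separate ranges (-1.68 ± 0.16, adjusted p = 0.000104).

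Lists of antigen presentation (MHC class I and II), interferon, cell cycle, antioxidant and complement genes held few calls, with MHC class I the only list of the 6 above the background of 9.59% called. Of 17 MHC class I genes, 3 were lower and 1 was higher (median 0.147). H2-K1 held 319, 348 (median) and 411 CPM in KO and 479, 528, 719 and 831 CPM in Het, with separate ranges (-0.73 ± 0.11, adjusted p = 0.00197). H2-Q4 and H2-Q6 fell by 1.00 and 1.32, and reads may be shared among these paralogs. B2m rose by 0.61, a call lost in 8 of 10 fits with 1 library left out. Of 11 MHC class II genes, H2-Ob, part of a regulator of peptide loading, was lower (-0.99 ± 0.19, adjusted p = 0.00721). The class II list had a median of -0.785, which was -1.744 below the 3% line and 0.369 above it. Of 25 interferon response genes, the transcription factor gene Irf1 was lower, with 41.1, 46.0 (median) and 50.2 CPM in KO and 78.9, 81.7, 88.2 and 91.3 CPM in Het (-0.87 ± 0.11, adjusted p = 0.000661). Ifit2 was higher (0.62 ± 0.17, adjusted p = 0.0474), a call lost in 9 of 10 fits with 1 library left out. Of 30 cell cycle genes, Pcna, the replication clamp, was lower, with 40.5, 51.8 (median) and 59.5 CPM in KO and 122, 102, 164 and 195 CPM in Het (-1.40 ± 0.16, adjusted p = 0.000294). The spindle factor gene Tpx2 was higher, with 5.67, 7.31 (median) and 12.9 CPM in KO and 0.313, 1.37, 1.38 and 2.50 CPM in Het (2.62 ± 0.54, adjusted p = 0.0107). The other 28 cell cycle genes did not pass, and the median was 0.234. Of 24 NRF2 targets and antioxidant genes, the autophagy receptor gene Sqstm1 was lower (-0.78 ± 0.14, adjusted p = 0.00413). Taldo1 was higher (0.55 ± 0.16, adjusted p = 0.0489), a call lost in 9 of 10 fits with 1 library left out. Of 11 complement genes, the integrin gene Itgb2 was higher (0.55 ± 0.12, adjusted p = 0.0120), lost without Het 1.

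Markers of other cells that a CD11b and CD45.2 gate or free RNA could bring in were read as whole lists. In bulk samples fewer cells of a type and less RNA per cell cannot be told apart. Summed CPM of 15 border-associated macrophage genes was 901.1 to 1445 in KO and 1153 to 2002 in Het, and of 14 tested 1 passed, Stab1. The list had a median of -0.796, with -1.777 below the 3% line and -0.129 above it, and its marker Mrc1 was lowest in KO 5 and KO 6. Mrc1, the mannose receptor, held 226, 82.3, 148, 233, 32.6 and 21.3 CPM in KO 1 to 6, against 129, 204, 48.3 and 82.7 CPM in Het. Summed CPM of 13 monocyte genes was 8.51 to 88.7 in KO and 26.8 to 95.2 in Het, and of 15 oligodendrocyte and myelin genes 409.4 to 627.6 in KO and 602.1 to 831.5 in Het. Most of the oligodendrocyte sum was Trf, transferrin, with 330.2, 482 (median) and 539 CPM in KO and 669, 535, 675 and 746 CPM in Het (-0.50 ± 0.16, adjusted p = 0.0713). Summed CPM of 10 precursor genes was 3.77 to 5.43 in KO and 12.4 to 15.4 in Het, of 14 astrocyte genes 143.9 to 176 in KO and 119.1 to 143.4 in Het, and of 16 endothelial and mural genes 255.4 to 445.7 in KO and 208.9 to 277.7 in Het. Vcan, a proteoglycan of precursors and monocytes, held 0.291, 1.88, 0.295, 0.580, 0 and 0.709 CPM in KO 1 to 6, against 1.88, 10.98, 4.14 and 3.90 CPM in Het (-3.07 ± 0.73, adjusted p = 0.0229), a call lost without Het 2. For neurons the sums of 14 genes were 13.2 to 31.6 CPM in KO and 4.7 to 15.4 CPM in Het. Snap25, a synaptic protein, had 76 counts in all over the KO libraries and 0 over the Het libraries. Against a floor of 3 counts over the Het group, that was at least 14.6-fold higher in KO. Neutrophil, lymphocyte and red blood cell sums overlapped between the groups, and no tested member of these lists passed. Among lymphocyte markers Cd3e, Cd3g and Cd79a were at 0 in all 10 libraries. The part of these other cells in the results was not tested.

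Between the subsets themselves, below against above 3%, 88 genes passed (0.773%), 78 higher below the line (0.686%) and 10 lower (0.0879%). With a KO over Het difference per subset in a single model, 968 genes passed above the line (8.51%, 2.99% higher and 5.52% lower) and 156 below it (1.37%, 0.167% higher and 1.2% lower). Each subset was also fitted alone, so that the fits shared no library. Above the 3% line, 4 KO and 2 Het libraries gave 523 calls, of which 92% had the same sign below the line. Below it, 2 KO and 2 Het libraries gave 188 calls, of which 96.3% had the same sign above. Between these fits 140 genes were called the same way, 55 higher and 85 lower, and 0 were called opposite ways. Over all 11378 genes 62.6% had the same sign in both fits, and Pearson's r across genes, which are not independent replicates, was 0.328. Of genes called above the line, the 185 higher had a median of 1.6 there and 0.858 below it, and the 338 lower had a median of -1.67 there and -1.07 below it. Of genes called below the line, the 71 higher had a median of 1.15 there and 1.64 above it, and the 117 lower had a median of -1.98 there and -1.92 above it. The immediate early list had a median of -1.488 below the line and -3.038 above it. Of its 23 called members, 22 differed more above the line, against 765 of all 1091 genes called.

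The test of the difference itself, genotype by subset, called 9 of 11378 genes (0.0791%), and 986 had an unadjusted p under 0.05. They are named after their values were seen, outside the rule for named genes. All 9 had a more positive KO over Het difference below the 3% line. Jun (2.46 ± 0.25), Junb (1.97 ± 0.26), Jund (2.26 ± 0.28), Zfp36 (2.05 ± 0.25) and Ppp1r15a (2.28 ± 0.29) had negative KO over Het differences in both subsets, smaller in size below the line, where Jund did not pass. The iron transporter gene Slc11a2 (2.72 ± 0.36) was higher in KO below the line (2.46) and near 0 above it (-0.26). The others were Nfkbid (2.78 ± 0.40), a nuclear IkB protein, and the unnamed loci Gm37084 (2.87 ± 0.35) and Gm20716, which had 0 counts in Het 3 and 4. Among Het libraries the line and sex coincide, since Het 1 and 2 are male and Het 3 and 4 female. Among KO libraries they do not, and Jun held 476 and 517 CPM in the females KO 2 and 3 above the line, 586 and 421 CPM in the males KO 1 and 4, and 3699 and 4385 CPM in the females KO 5 and 6 below it. Jun is shown as an example, and the part of sex in the interaction was not tested. The labels name no batch behind the line.

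**Figure D4:**
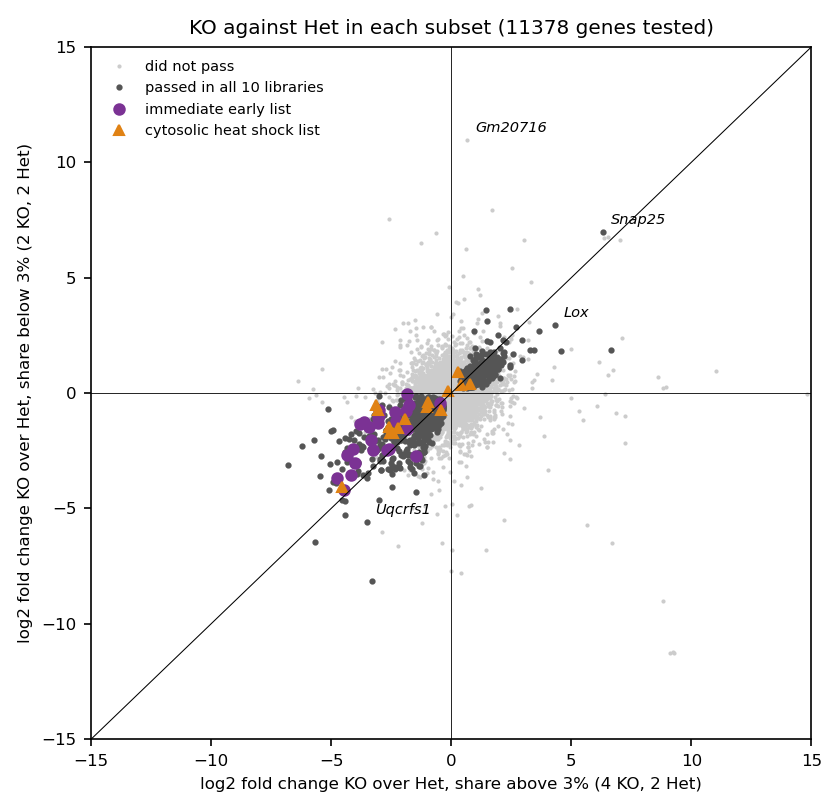
Log2 fold change KO over Het of 11378 genes, fitted above the 3% line (horizontal axis, 4 KO and 2 Het libraries) and below it (vertical axis, 2 KO and 2 Het libraries), with the line of equal values. Genes that passed over all 10 libraries are dark, purple circles are immediate early genes, and orange triangles are heat shock genes. The purple circles lie above the line of equal values in 22 of 23 called cases, which is a smaller fall below 3%. Of all 1091 genes called, 765 had the larger difference above 3%.

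To see how far the difference was present without demyelination, KO was set against Het in those naive adult libraries whose share of Gm26917 and Yam1 was at least 1% and whose depth was nearest, 6 naive KO and 7 naive Het libraries with 6.38 to 11.7 M counts. In a model over 14538 genes, 1128 genes (7.76%) passed in naive mice, 474 higher (3.26%) and 654 lower (4.5%) in KO. Of the 1091 genes called under cuprizone 575 were called the same way in naive mice, which is 52.7% of them and 54% of the 1065 naive calls tested in both. None was called the opposite way, and 96.1% of the 1091 had the same sign in naive mice, against 71.7% of all genes tested in both. Across the 11378 genes the log2 fold changes had a Pearson r of 0.607, which describes genes that are not independent replicates.

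Klf4 was -3.14 ± 0.49 in naive KO over Het and Fos -3.004 ± 0.32, Lox was 3.59 ± 0.30, Atf5 3.40 ± 0.29 and Aldoa 1.12 ± 0.13, all called in both settings. Uqcrfs1 was -2.56 ± 0.29 in naive libraries, a smaller fall than the -4.17 ± 0.49 under cuprizone. For Uqcrfs1 the cuprizone difference minus the naive one was -2.004 ± 0.51 and did not pass (adjusted p = 0.495). The cuprizone value rests on 0 to 5 counts per KO library, so a weaker loss in naive KO is not shown. Whether any such difference bears on the other comparisons between settings was not tested. The difference of differences, cuprizone minus naive, called 1 gene of 14538 (0.00688%), and 875 had an unadjusted p under 0.05. That gene was Hsp90aa1, at -2.12 under cuprizone in the model of the 10 libraries and -0.52 ± 0.14 in naive mice, and the difference of differences in the model of both settings was -1.47 ± 0.22 (adjusted p = 0.0192). The call was lost without KO 5, Het 1, Het 3 or Het 4 and with sex as a term, where the difference was between -1.476 and -1.251, and over all alternatives its adjusted p was 0.00146 to 0.165. The heat shock list had a median of -1.591 under cuprizone and 0.035 in naive mice. The median of its per-gene differences of differences was -0.63, and its other 14 members did not pass the test of the difference. Although the naive median of the list lay near 0, some of its members fell in naive mice too. Hspb1, Dnajb1 and Dnajb4 were at -3.95, -1.01 and -1.82 in naive KO over Het. These genes and Hsp90aa1 all passed in naive mice. For the immediate early list the medians were -2.398 and -2.178, for glycolysis 0.717 and 0.418, and for the mitochondrial DNA genes 1.141 and 1.002. By Y-linked genes, only KO 6, Het 5 and Het 6 of the naive libraries were female, while 4 of the 10 cuprizone libraries were male. Cuprizone and naive libraries also differ in depth, and treatment and library batch cannot be told apart in this comparison.

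**Figure D5:**
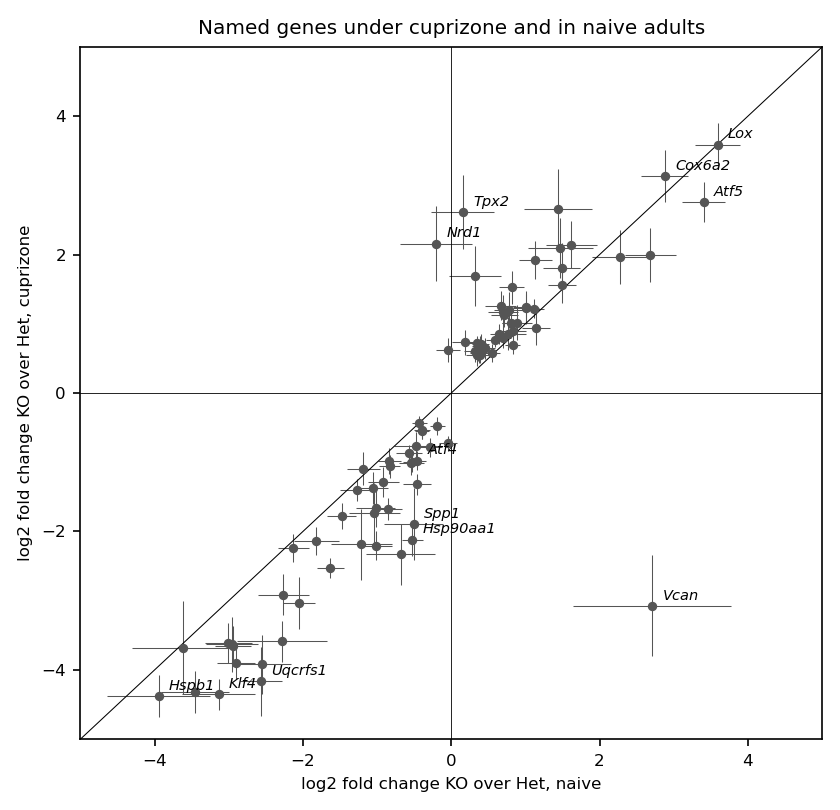
Log2 fold change KO over Het under cuprizone (vertical axis) and in naive adults (horizontal axis) of the named genes other than Snap25, with SE on both axes and the line of equal values. Klf4, Hspb1, Lox and Atf5 lie far from 0 on both axes, Hsp90aa1 lies below the line of equal values, and Vcan, which did not pass in naive mice, has opposite signs.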

How the data were processed

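RNA of sorted microglia was measured in 64 libraries, of which 6 KO and 4 Het cuprizone libraries are described here and 13 naive ones serve for comparison. The authors deposited raw counts per gene for 45708 genes. The submitters' processing notes list GRCm38 as the build and, with no role or order, Salmon 1.5.2, STAR 2.6.1d, bcl2fastq 2.20 and Trim Galore 0.6.7. The counting tool, its strand setting and its annotation are not given in the sources used here, so overlapping genes and near-identical paralogs are uncertain.

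Counts were scaled by TMM and tested with the quasi-likelihood test of edgeR 4.0.16 (R 4.3.3) after filterByExpr with a minimum count of 10 and a minimum total of 15. The model held genotype and the subset term, with the line drawn at 3% of counts from Gm26917 and Yam1. A model with a mean per genotype and subset gave the values within subsets, and a model with the 13 naive libraries (share of at least 1%, between 5.5 and 15 M counts (M, mega)) gave the difference of differences. P values were adjusted by Benjamini-Hochberg over all genes tested, and 0.05 was the threshold. SE is the log2 fold change divided by the root of the F statistic. Sex was read from Y-linked genes, with 50 counts or more as male. The depth of 2.7 to 5.1 M counts limits precision for genes of low level, and floors of 3 counts cover counting error only. The scripts were tested on simulated data.

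The members, gene lists and tests were chosen with earlier results of these data known. Named genes were Uqcrfs1, the 10 called genes with the largest rise and the 10 with the largest fall (mean log2 CPM no lower than 3, leaving out Rik, clone-style and Gm-numbered names), the called members of each list ranked by p as far as the 4 lowest, and further list members whether called or not. Promoter sequences are from RefSeq (GRCm38.p6). Alternatives were another scaling, no filter, DESeq2 1.42.0, other model terms, each subset alone and each library left out. Some list members are counted in their lists and not reported here by name.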

Additional observations from a re-analysis of the deposited data

Results flagged for a closer look

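Of 176 groups of 4 or 6 values of named genes, 14 held a library whose gap to its nearest neighbour was large for the group's range by Dixon's criterion, where chance gives about 1 in 20. No explanation was tested for them. Among KO libraries, KO 3 stood high for Bnip3 (101.9 CPM, the others 48.2 to 62.7) and Phgdh (158.0 CPM, the others 69.2 to 89.6) and low for mt-Atp8 (194.0 CPM, the others 422.1 to 553.6). KO 5 stood high for Eno1 (317.0 CPM, the others 239.8 to 259.9) and Rab3d (31.6 CPM, the others 7.5 to 12.8) and low for Ccl6 (19.2 CPM, the others 35.7 to 42.7). KO 2 stood high for Gla (36.3 CPM, the others 5.43 to 12.1) and Itgb2 (957.6 CPM, the others 762.4 to 809.8). Among Het libraries, Het 1 stood high for Hspb1 (99.5 CPM, the others 29.5 to 38.4) and Aldh1l2 (11.9 CPM, the others 7.51 to 7.89). Het 2 stood low for Bnip3 (10.3 CPM, the others 18.5 to 19.8), Ctsb (1222 CPM, the others 1602 to 1638) and Glb1 (27.8 CPM, the others 36.2 to 37.2). Het 4 stood low for P4ha1 (294.4 CPM, the others 304.6 to 306.6).

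The KO over Het difference below the 3% line minus that above it passed the interaction test for 9 genes. On the log2 scale it was 2.46 for Jun, 2.28 for Ppp1r15a, 2.26 for Jund, 2.05 for Zfp36, 1.97 for Junb, 2.78 for Nfkbid, 2.87 for Gm37084 and 2.72 for Slc11a2. For Gm20716 the fitted value was 10.3, which rests on 0 counts in Het 3 and 4 and is no measure of size. The KO over Het difference under cuprizone minus that in naive adults passed for Hsp90aa1, at -1.47.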

How the results depend on the processing

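For KO against Het under cuprizone, the 1091 calls became 188 below the 3% line alone, 523 above it alone, 1833 with no filter on low counts, and 584 (without Het 1) to 955 (without KO 4) with 1 library left out, and 623 without Het 2. In alternatives chosen after seeing the data there were 586 without the 2 libraries with 0 tdTomato counts, 153 in female libraries only and 1015 with counts thinned to the smallest total. DESeq2's Wald test gave 1611, sex as a term 735, and all 64 libraries 1104. Of the 138 calls in the gene lists, 38 calls were made below the line alone, 82 above it alone, 34 in female libraries, and 85 (without Het 1) to 127 (without KO 4) with 1 library left out. The replicate numbers do not pair the libraries (correlations of same-numbered deviations -0.114 to 0.0538), and a replicate block in place of the subset term gave 520 calls, 82 of them in the lists. The 9 interaction calls became 377 with no filter. The single call against naive libraries became 2 with no filter, 0 with sex as a term, and 0 (without KO 5, Het 1, Het 3 or Het 4) to 2 (without KO 3) with 1 library left out. The cause of these changes was not tested, and fits with libraries left out also hold fewer libraries. The 88 named genes counted here were all called in the main fit, so a call could only be kept or lost. Over 24 settings, 1719 of 2112 values kept their side of the threshold, 393 did not and 0 reversed sign. The settings share libraries with the main fit that chose these genes, so the same sign was likely beforehand. In all, 20 genes kept their call in every setting and 59 in every fit with 1 library left out. Depth limits genes of few counts such as Chac1, Hgf and Vcan.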
